A study of Mus musculus with 24 samples.

Results

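The cell cycle and proliferation genes described here are 34 genes chosen by name for their known roles in cell division, not by their values: 24 act in mitosis or in the drive into it and 10 in DNA replication. All 34 were measured, among 19938 genes in all, in inguinal fat, a subcutaneous fat depot, of mice whose adipocytes were made to lack the clock gene Bmal1. Each gene is represented by a probe set with a single gene symbol, and of several by the one with the highest mean. Knockout mice carried aP2-Cre+/- and Bmal1fx/fx, and control mice carried Bmal1fx/fx without Cre, so an effect of Cre itself cannot be told apart from that of the deletion. Cre was driven by the aP2 promoter, which is used for adipocytes, and cells of the pad that do not express Cre keep the gene. All mice were of C57BL/6J background, crossed for at least 6 generations, fed chow, kept in constant darkness from 36 h before collection began and fasted for 24 h. Fat was taken at circadian times CT0, when the subjective day begins, and CT6, CT12 and CT18. The 8 groups of genotype and time held 3 mice each, with 1 array per mouse and 24 arrays in all. The animals' age is not given in the sources used here. Values are log2 expression from the array, so a difference of 1 is a 2-fold change on that scale.

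A cell that divides copies its DNA in S phase and then separates the copies in mitosis. MCM proteins form the helicase that opens the DNA, ribonucleotide reductase and thymidylate synthase supply nucleotides, and the sliding clamp PCNA holds the polymerases on the template. Cyclins A2 and B2 with the kinase CDK1 drive entry into mitosis, where Aurora and Polo-like kinases, the spindle checkpoint, kinetochore proteins and kinesin motors move the chromosomes. In resting cells the DREAM complex is known to repress genes of mitosis through CHR promoter elements, often beside CCAAT boxes bound by the factor NF-Y, and genes of replication through E2F sites. Mature adipocytes do not divide as a rule, and in a fat pad cycling cells are known among progenitors, endothelial cells and leukocytes.

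Several arrays stood apart before any member was considered. Knockout replicate 2 at CT0 read all 9 of 9 epithelial markers above their mean over the 24 arrays, with Epcam at 7.63 against 5.08 to 5.53 on the other 23. Of these markers Krt5 (5.74), Krt14 (6.24) and Elf5 (5.59) lay within the range of the other arrays. The same array read 0 of 8 adipocyte markers above their mean. Knockout replicate 3 at CT18 had the highest values of the immunoglobulin gene Igha (9.19) and the mucin gene Muc19 (6.83). At CT12, Nr1d2, a known target of BMAL1, read 8.72, 9.47 and 9.39 in control replicates 1, 2 and 3 and 9.10, 8.77 and 8.48 in the knockouts, with replicate 1 of each genotype the nearest to the other genotype. At CT18 it read 8.22, 7.93 and 7.80 in controls and 7.31, 7.43 and 7.74 in knockouts, with replicate 3 of each genotype closest to the other. Other clock genes did not all place the arrays of CT18 so: Nr1d1 read 7.55, 7.31 and 7.37 in controls and 7.10, 7.11 and 7.07 in knockouts, and Nfil3 was highest in knockout replicate 3 (8.72), so doubt about replicate 3 at CT18 rests on fewer genes. These 4 arrays were picked in earlier work on these data. Results are given without knockout replicate 2 at CT0, and without these 4 arrays of CT12 and CT18, where they rest on them. Arntl, the symbol of Bmal1, lay at 7.97 ± 0.0025 (SD, n = 3) in controls and 7.43 ± 0.12 in knockouts at CT0, but at 6.34 ± 0.37 and 6.74 ± 0.25 at CT12. Averaged over the 4 times its difference was 0.01 ± 0.08 (SE, limma adjusted p = 0.997). Which exons are deleted is not given in the sources used here, so this probe set cannot check the deletion. The adipocyte genes Adipoq (11.8 to 12.1) and Fabp4 (12.4 to 12.7) were bright on every array.

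The promoters of several members are shown first, with the short elements that regulate cell cycle genes in capitals. Windows of 300 bases, 250 before and 50 after the start, came from RefSeq (GRCm38.p6), and 29 of the 34 members had a window that was used, 31 windows in all. The letters TTTGAA or TTTAAA, the core of the CHR element, and CCAAT were searched on both strands. Sequences are written 5′ to 3′ along the gene's strand, and capitals mark these letters on either strand, so that CCAAT on the opposite strand reads ATTGG. The letters TTTAAA are their own reverse complement. Top2a, Mki67 and Prc1 are among the members with the widest range between arrays, and Aurka and Mcm2 are among the narrowest. The windows lie at chr11:99024140-99024439 (minus strand) for Top2a, chr7:135716330-135716629 (minus strand) for Mki67, chr7:80294201-80294500 (plus strand) for Prc1, chr2:172370521-172370820 (minus strand) for Aurka and chr6:88898731-88899030 (minus strand) for Mcm2.
Top2a: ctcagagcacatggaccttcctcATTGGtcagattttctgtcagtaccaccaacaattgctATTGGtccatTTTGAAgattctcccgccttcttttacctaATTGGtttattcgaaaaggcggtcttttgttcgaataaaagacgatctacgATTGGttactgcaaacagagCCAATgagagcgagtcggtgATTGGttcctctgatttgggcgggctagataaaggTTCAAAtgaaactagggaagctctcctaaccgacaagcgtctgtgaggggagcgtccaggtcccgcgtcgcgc
Mki67: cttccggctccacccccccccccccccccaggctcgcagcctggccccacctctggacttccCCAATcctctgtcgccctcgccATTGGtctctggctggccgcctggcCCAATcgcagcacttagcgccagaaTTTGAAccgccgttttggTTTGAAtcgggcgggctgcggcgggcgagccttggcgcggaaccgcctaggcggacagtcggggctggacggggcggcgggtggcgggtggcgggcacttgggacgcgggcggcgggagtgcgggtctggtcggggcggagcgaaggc
Prc1: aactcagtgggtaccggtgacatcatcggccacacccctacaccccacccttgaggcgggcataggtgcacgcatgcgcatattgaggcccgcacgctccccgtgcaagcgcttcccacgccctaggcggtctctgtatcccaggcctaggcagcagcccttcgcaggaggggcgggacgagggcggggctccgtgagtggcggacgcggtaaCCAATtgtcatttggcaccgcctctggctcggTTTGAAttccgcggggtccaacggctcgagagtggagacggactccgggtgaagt
Aurka: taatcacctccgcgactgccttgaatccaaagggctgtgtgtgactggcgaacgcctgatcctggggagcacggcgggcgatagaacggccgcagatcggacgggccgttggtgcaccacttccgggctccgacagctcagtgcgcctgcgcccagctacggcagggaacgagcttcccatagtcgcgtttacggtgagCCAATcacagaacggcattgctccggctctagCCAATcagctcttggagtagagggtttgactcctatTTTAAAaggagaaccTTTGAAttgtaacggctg
Mcm2: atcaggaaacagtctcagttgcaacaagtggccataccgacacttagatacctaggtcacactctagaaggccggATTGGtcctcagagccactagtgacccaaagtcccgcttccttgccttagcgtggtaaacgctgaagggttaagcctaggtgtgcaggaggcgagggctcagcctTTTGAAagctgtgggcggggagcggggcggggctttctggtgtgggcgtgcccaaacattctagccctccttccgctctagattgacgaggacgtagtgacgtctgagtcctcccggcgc

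The CHR letters stood in 18 of 21 windows of mitotic members (85.7%) and in 3 of 10 windows of replication members (30%), against 27.6% of all 32851 windows. CCAAT stood in 17 of 21 mitotic windows (81.0%) and 9 of 10 replication windows (90%), against 37.4% of all windows. Both sets of letters occurred together in 16 of the 21 mitotic windows (76.2%), in 3 of the 10 replication windows (30%) and in 10.7% of all windows. The E2F-like letters TTTCCCGC, TTTGGCGC, TTTCGCGC or TTTGCCGC, also on both strands, stood in 1 mitotic window (Cdk1) and in 4 of 10 replication windows (Mcm3, Mcm5, Mcm6 and Mcm7), against 2.27% of all windows. In Mcm5 and Mcm6 matches of this kind overlapped on opposite strands. The E-box letters CACGTG, which the CLOCK and BMAL1 pair is known to bind and which are their own reverse complement, stood in 2 of the 31 member windows (6.45%), those of Ttk and Tyms, against 7.15% of all windows. The CHR letters were thus carried mostly by mitotic members and the E2F-like letters mostly by replication members, with no test made. A match is a description of these windows and not a bound site.

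Signals of the members were low. Only Pcna (mean 10.1), Mcm6 (6.83), Rrm1 (6.83), Aurka (6.72) and Tyms (6.66) lay at or above 6.50, the median level of all genes, and Ttk (4.56), Bub1 (4.64), Nuf2 (4.66), Tpx2 (5.07) and Cenpf (5.34) had the lowest means. The files hold no detection calls, and the brightness of different probe sets does not rank genes by their RNA. Top2a, the topoisomerase that untangles sister chromatids, has another probe set that read 3.55 to 4.25 and did not follow the one used (r = 0.04 over the 24 arrays). The other probe set of Pcna followed the one used (r = 0.99).

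Mki67, whose protein Ki-67 is the common stain for cycling cells, read 5.83, 5.53 and 6.10 in control replicates 1, 2 and 3 at CT0 and 5.59, 6.71 and 6.23 in knockouts. Control fat at CT6 gave 5.89, 6.05 and 6.47, against 5.45, 6.03 and 5.44 in knockout fat. At CT0 2 knockout arrays lay above every control array, and at CT6 2 lay below every control array. Control fat at CT12 gave 5.55, 5.61 and 5.29, against 5.41, 5.97 and 5.58 in knockout fat. Control fat at CT18 gave 5.66, 6.21 and 5.58, against 5.56, 5.35 and 6.71 in knockout fat. The genotypes overlapped at all 4 times.

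Top2a was high on the same arrays. It read 6.19, 6.18 and 6.62 in controls and 5.98, 7.12 and 6.76 in knockouts at CT0, and 5.91, 6.62 and 6.85 against 5.33, 6.45 and 5.61 at CT6. At CT12 it read 5.90, 5.59 and 5.69 in controls and 5.39, 6.28 and 5.99 in knockouts, and at CT18 5.73, 6.75 and 5.66 against 5.67, 5.79 and 7.18. Its lowest and highest arrays were both knockouts, 3.61-fold apart, the widest range of any member. Cdk1, the kinase of mitotic entry, ranged from 5.70 (knockout replicate 1 at CT12) to 6.37 (control replicate 3 at CT6). Pcna ranged from 9.86 (knockout replicate 1 at CT6) to 10.4 (knockout replicate 2 at CT12). In bulk fat, fewer cycling cells and less of these RNAs per cell cannot be told apart.

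**Figure D1:**
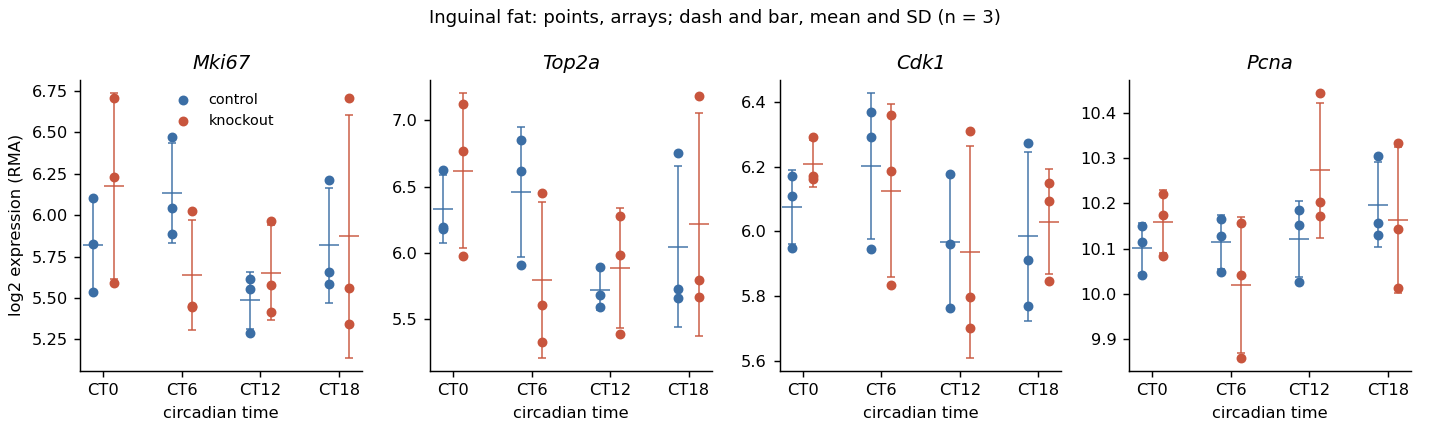
Log2 expression (vertical axis) of Mki67, Top2a, Cdk1 and Pcna by circadian time (horizontal axis) in control and knockout inguinal fat, with 1 point per array and a dash and bar for the mean and SD of 3 arrays. The points of both genotypes overlap at every time. For Mki67, Top2a and Pcna, but not for Cdk1, knockout replicate 2 at CT0 (6.71 for Mki67) and knockout replicate 3 at CT18 (6.71) stand above the rest of their groups.

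The first comparison asked whether loss of Bmal1 from adipocytes altered these genes. Averaged over the 4 times, no member passed the test: 0 of 34 reached an adjusted p below 0.05 (limma, Benjamini-Hochberg over all genes) and 0 of 34 had an unadjusted p below 0.05, where 0.0201% and 6.07% of all genes did. The differences, knockout minus control, were positive for 15 members and negative for 19, with a median of -0.005, beside 0.0008 over all genes. After quantile normalization 17 were positive and 17 negative, and without knockout replicate 2 at CT0 9 were positive and 25 negative (median -0.04). Without the 4 arrays of CT12 and CT18, 10 were positive and 24 negative (median -0.03). No member passed in that fit (smallest limma adjusted p = 0.465), and 1 had an unadjusted p below 0.05. Of all genes 139 passed in it, beside 4 in the main fit. With all arrays Mcm4, a helicase subunit, had the smallest p, with -0.10 ± 0.06 (SE, limma adjusted p = 0.903). Tpx2, which activates Aurora A on the spindle, had 0.13 ± 0.09, Ndc80, of the kinetochore complex that grips microtubules, -0.10 ± 0.09, Mcm2 0.05 ± 0.04, the checkpoint kinase gene Bub1b -0.09 ± 0.08 and the spindle gene Nusap1 -0.08 ± 0.08. Mki67 had 0.02 ± 0.15, Top2a -0.01 ± 0.19, Cdk1 0.02 ± 0.08 and Pcna 0.02 ± 0.05. Zero lay inside the 95% interval of all 34 differences. The interval ran from -0.41 to 0.39 for Top2a, the widest, and from -0.08 to 0.12 for Pcna, and its half-width ranged from 0.0742 for Kif20a to 0.4 for Top2a, with a median of 0.154.

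At single times no member passed either. At CT0, 0 of 34 passed and 2 had an unadjusted p below 0.05, where 0% and 5.55% of all genes did. These were Mcm2 at 0.18 ± 0.08 (unadjusted p = 0.0299, limma adjusted p = 0.869) and Nuf2, a partner of Ndc80, at 0.30 ± 0.13 (unadjusted p = 0.0359, limma adjusted p = 0.884), and Prc1, a bundler of spindle microtubules, followed at 0.38 ± 0.20. Mcm2 read 6.36, 6.34 and 6.38 in controls and 6.42, 6.71 and 6.50 in knockouts, the only member whose knockout arrays all lay above the controls, as 6.28% of all genes did. The difference was positive for 32 of 34 members with a median of 0.13, whereas over all genes 55.4% were positive with a median of 0.01. By role it was positive for 3 of 3 CDK and cyclin members, 6 of 6 kinases and checkpoint members, 6 of 6 spindle members, 5 of 6 kinetochore members and 9 of 10 replication members. Of 47 other genes of mitosis and cytokinesis, 28 were positive and 19 negative, with a median of 0.01. Of 34 other licensing and replication genes, 18 were positive and 16 negative, with a median of 0.03. The members varied together between arrays (mean pair correlation 0.494, below), so their signs are not 34 separate observations. Without knockout replicate 2 at CT0 the difference was positive for 22 of 34 members with a median of 0.01. Without knockout replicate 1, the lowest of its group for 32 members, the median was 0.24, and no member passed (smallest limma adjusted p = 0.353).

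At CT6 the sign was the opposite one. The difference was negative for 31 of 34 members with a median of -0.15, beside 0.002 over all genes. It was negative for 3 of 3 CDK and cyclin members, 6 of 6 kinases and checkpoint members, 6 of 6 kinetochore members, 5 of 6 spindle members and 9 of 10 replication members. Of the 47 other mitosis genes 33 were negative, and of the 34 other replication genes 25, with a median of -0.05 in each list. Again 0 of 34 members passed, and 1 had an unadjusted p below 0.05, where 0% and 3.77% of all genes did. That was Rrm2, the regulated subunit of ribonucleotide reductase, at -0.38 ± 0.16 (unadjusted p = 0.0266, limma adjusted p = 1). It read 5.72, 6.05 and 5.97 in controls and 5.43, 5.70 and 5.48 in knockouts, and with the checkpoint kinase gene Ttk it made 2 members whose knockouts all lay below the controls, as 6.27% of all genes did. Ccnb2, of the CDK1 complex, had -0.29 ± 0.14 and Mcm5 -0.14 ± 0.08, and the largest differences were those of Top2a (-0.66 ± 0.38) and Mki67 (-0.50 ± 0.30), each smaller than 2 standard errors. The median was -0.09 without control replicate 3, the array highest for 26 members in its group, and -0.10 without knockout replicate 3. It was -0.27 without control replicate 1 and -0.24 without knockout replicate 2, and no member passed in any of these fits. At least 26 members were negative in each of these 4 fits, and quantile normalization left 31 negative. Some marker means also differed at CT6, in both directions. The neutrophil mean was higher in knockouts, with 5.41, 5.47 and 5.38 in controls and 5.70, 5.50 and 5.49 in knockouts. The plasma cell mean read 7.24, 7.14 and 7.18 in controls and 6.86, 7.09 and 6.61 in knockouts. The endothelial mean read 8.64, 8.68 and 8.67 against 8.26, 8.42 and 8.64, with knockout replicate 3 beside control replicate 1 (8.635 and 8.643). The markers of these lists did not all move alike. Of the plasma cell list, only Prdm1 was lower on every knockout array, whereas Jchain, Tnfrsf17, Sdc1 and Xbp1 overlapped. The endothelial gene Tek was highest on knockout replicate 3 (8.59). The T cell mean read 6.15, 7.05 and 6.84 in controls and 6.32, 6.33 and 6.24 in knockouts and overlapped. The part of these cells in the differences of the members was not tested.

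At CT12 and CT18 the signs were mixed and moved with single arrays. At CT12, 19 were positive and 15 negative with a median of 0.003, and 0 of 34 passed or had an unadjusted p below 0.05, where 0% and 2.49% of all genes did. Pcna had 0.15 ± 0.09, Tyms, which encodes thymidylate synthase, 0.19 ± 0.13 and Ube2c, a ubiquitin carrier that marks cyclins for destruction, -0.11 ± 0.09. At CT18, 12 were positive and 22 negative with a median of -0.03, and 0 of 34 passed or had an unadjusted p below 0.05, where 0.00502% and 6.05% of all genes did. Mcm4 had -0.19 ± 0.11, the Polo-like kinase gene Plk1 0.22 ± 0.14 and Ndc80 -0.26 ± 0.17. At CT12 26 members were positive without knockout replicate 1 (median 0.04) and 24 negative without knockout replicate 2 (median -0.05). At CT18 29 members were negative without knockout replicate 3 (median -0.12) and 25 without control replicate 3 (median -0.08) or control replicate 1 (median -0.06), whereas the median was 0.01 without knockout replicate 1, -0.0002 without knockout replicate 2 and 0.02 without control replicate 2. Without the 4 arrays of CT12 and CT18, 22 members were positive at CT12 (median 0.09) and 27 negative at CT18 (median -0.16), with 0 passing. No member was above or below without overlap at these times.

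**Figure D2:**
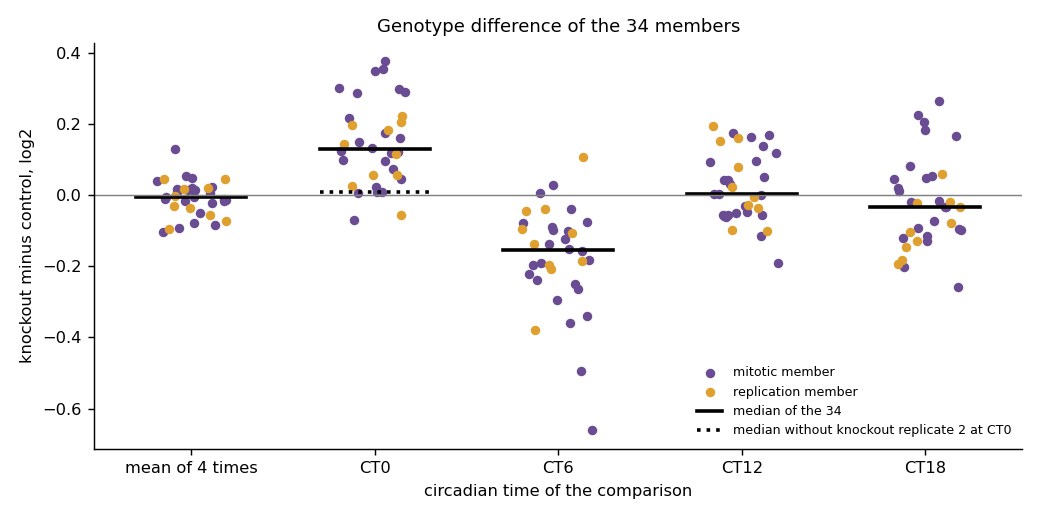
Log2 difference of knockout minus control (vertical axis) for each of the 34 members, averaged over the 4 times and at each circadian time (horizontal axis), with 24 mitotic and 10 replication members in different colours and a bar at the median. The median lies at 0.13 at CT0 and -0.15 at CT6, and the dotted bar shows 0.01 at CT0 without knockout replicate 2.

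Whether the genotype difference depended on time was tested by the interaction, which 0 of 34 members passed and for which 0 had an unadjusted p below 0.05, where 0% and 2.98% of all genes did. This test takes all times together. The change of the genotype difference from CT0 to CT6 alone was not tested. Whether the opposite signs at these times stood above the spread between arrays for a member is therefore undecided. Mcm2 had the smallest interaction p (0.0824, limma adjusted p = 1), followed by Tyms (0.103) and Rrm2 (0.105).

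The second comparison asked whether the genes varied over the circadian day. In controls 0 of 34 passed and 0 had an unadjusted p below 0.05, where 0.0602% and 5.8% of all genes did, and Mcm2, Ccna2 and Ccnb2 had the smallest p. In knockouts 0 of 34 passed and 3 had an unadjusted p below 0.05 (Ube2c, Mcm5 and Prc1), where 0.0702% and 13.4% of all genes did. Averaged over genotypes 0 of 34 passed and 2 had an unadjusted p below 0.05 (Ube2c and Mcm5), where 0.883% and 16.1% of all genes did. The shares of members were below the shares of all genes in each of these 3 tests. With 4 times over 1 cycle, a rhythm cannot be told apart from other changes over the day.

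Between CT12 and CT0 most members were lower at CT12, though none passed. The difference, CT12 minus CT0 averaged over genotypes, was negative for 27 of 34 members with a median of -0.16, while over all genes 55.8% were positive with a median of 0.01. Among mitotic members 21 of 24 were negative, with a median of -0.19, and among replication members 6 of 10, with a median of -0.02. Here 0 of 34 passed and 5, all negative, had an unadjusted p below 0.05, where 0.532% and 10.6% of all genes did in either direction. Ube2c had -0.23 ± 0.06 (unadjusted p = 0.00117, limma adjusted p = 0.11). Its controls read 5.89, 5.93 and 6.05 at CT0 and 5.87, 5.89 and 5.75 at CT12, and its knockouts 6.05, 6.16 and 5.95 at CT0 and 5.63, 5.77 and 5.76 at CT12. The knockout arrays of the 2 times did not overlap, and the control arrays overlapped slightly. Prc1 had -0.39 ± 0.14, Top2a -0.67 ± 0.27, Cenpf, a large kinetochore protein, -0.30 ± 0.14 and Nuf2 -0.20 ± 0.09, and Mki67 had -0.43 ± 0.21. Without knockout replicate 2 at CT0, 24 of 34 were negative with a median of -0.09. Without knockout replicate 1 at CT0, 29 were negative with a median of -0.21, and none passed in either fit. T cell markers were below their mean on 5 of the 6 arrays of CT12 and on 3 of the 6 of CT0. Other lists moved too. B cell markers were below their mean on the same CT12 arrays. Smooth muscle markers were below on every CT12 array (-0.72 to -0.19) and ranged from -0.68 to 0.88 at CT0. The part of these cells was not tested. With arrays weighted by their quality Ube2c passed (limma adjusted p = 0.035), the single member call in any fit. More genes passed in general with these weights, 441 of all genes beside 106 in the main fit.

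Between CT18 and CT6 the members were split, 20 positive and 14 negative with a median of 0.004, where 62.6% of all genes were positive, and after quantile normalization 9 were positive. None passed and 2, both positive, had an unadjusted p below 0.05, where 0.702% and 16.4% of all genes did in either direction. Mcm5 had 0.17 ± 0.05 (unadjusted p = 0.00454, limma adjusted p = 0.132) and Mcm4, of the same helicase, 0.17 ± 0.08. Pcna had 0.11 ± 0.07 (limma adjusted p = 0.398).

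What the members shared was their variation between mice of the same group. After each group's mean was removed, the 561 pairs of members had a mean Pearson correlation of 0.494 over the 24 arrays, and 92.5% of pairs were positive, while the mean over all gene pairs was 0.015. The mean was 0.55 within the mitotic members, 0.384 within the replication members and 0.449 between these sets. It was 0.42 without knockout replicate 2 at CT0, 0.519 without the 4 arrays of CT12 and CT18 and 0.409 without all 5. These correlations describe arrays that share genotype labels, tissue and processing, and carry no test. Replicates within groups held a median of 69.3% of a member's variance, beside 66.5% over all genes. The spread itself was wider, with a median SD within groups of 0.195 against 0.13 over all genes and a median range over arrays of 0.738 against 0.551.

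In 7 of the 8 groups 1 array held the highest value for most members. In knockout fat at CT0, replicate 2 was highest for 32 of 34 members and replicate 1 lowest for 32, where these arrays were highest and lowest for 40.6% and 29.2% of all genes. In control fat at CT6, replicate 3 was highest for 26 and replicate 1 lowest for 30 (36.4% and 31.2% of all genes). In knockout fat at CT18 replicate 3 was highest for 27 (36.5%), at CT12 replicate 2 for 27 (31.0%) and at CT6 replicate 2 for 25 (31.3%). In control fat, replicate 3 at CT0 was highest for 25 (31.7%) and replicate 2 at CT18 for 23 (24.1%). Only the controls at CT12 had no such array, with 14, 11 and 9 members highest on replicates 1, 2 and 3. Over all 24 arrays, knockout replicate 2 at CT0 was the highest for 19 members, knockout replicate 3 at CT18 for 6 and control replicate 3 at CT6 for 4, and these arrays were the highest for 9.66%, 11.8% and 2.37% of all genes.

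**Figure D3:**
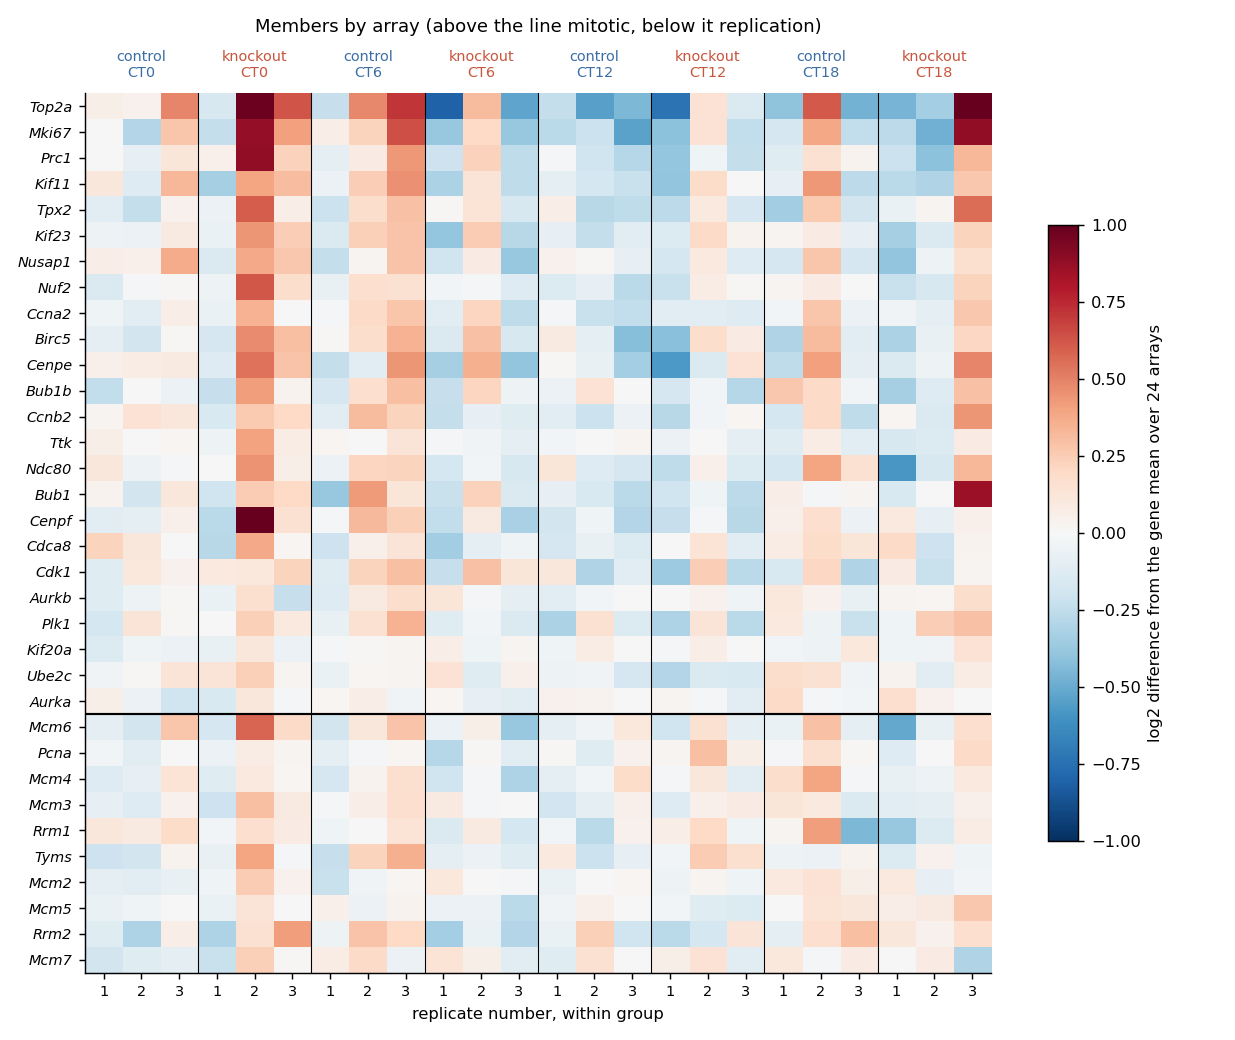
Log2 difference of each member (rows) from its own mean over the 24 arrays (columns, grouped by genotype and time), red above and blue below, with colours saturating at 1. Whole columns are red or blue, such as knockout replicate 2 at CT0 and control replicate 3 at CT6, and the colour fades toward Aurka and Mcm7 at the foot of each block.

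The members took part to different degrees. Top2a (r = 0.95 with the mean of the other mitotic members, after group means were removed), Mki67 (0.94), Prc1 (0.92), the kinesin gene Kif11 (0.92) and Tpx2 (0.92) followed the common pattern most closely. Of the replication members Mcm6 (0.86) and Pcna (0.78) were closest to the mitotic mean. Aurka (-0.02), the kinase of spindle poles, and Mcm7 (0.03) did not follow it, and Ube2c (0.34) and Kif20a (0.42), a motor of cytokinesis, followed it weakly. The widest ranges belonged to Top2a (1.85), Mki67 (1.42), Cenpf (1.33), Prc1 (1.30) and Bub1 (1.24), and the narrowest to Kif20a (0.28), Aurka (0.39), Aurkb (0.41), Mcm2 (0.47) and Mcm3 (0.50). Bub1, a spindle checkpoint kinase, was highest on knockout replicate 3 at CT18 (5.49) and Cenpf on knockout replicate 2 at CT0 (6.35), so these arrays did not raise the same members alike. Of the kinetochore and passenger members all 6 (Birc5, Cenpe, Cenpf, Nuf2, Ndc80 and Cdca8) had their highest value on knockout replicate 2 at CT0. Among the kinases Aurkb and Plk1 were instead highest on control replicate 3 at CT6 (6.34 and 5.75), as were Cdk1 (6.37) and Kif11 (5.88). Of the replication members Mcm2, Mcm3, Mcm6, Mcm7 and Tyms were highest on knockout replicate 2 at CT0, Mcm4 (6.74) and Rrm1 (7.24) on control replicate 2 at CT18 and Mcm5 (5.96) on knockout replicate 3 at CT18. Mcm7 was lowest (6.12) on that last array, where Mcm5 was highest, though both are subunits of 1 helicase. Ube2c and Mcm5 had the least of their variance within groups (39.6% and 38.9%), and Aurkb (81.5%), Mcm3 (80.7%) and Mcm6 (80.4%) the most.

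Outside the members, the 10 genes whose values over the 24 arrays were most like the mean of the 24 mitotic members were Kif20b (r = 0.95), Kif15 (0.92), Hmgb2 (0.90), Ncapg (0.88), Knl1 (0.88), Shcbp1 (0.86), Hells (0.85), Cip2a (0.83), Wdhd1 (0.83) and Fignl1 (0.83). Without knockout replicate 2 at CT0 their correlations lay between 0.76 and 0.94. They were picked from all genes for this likeness, so the values carry no test.

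Markers of cell types moved with this pattern on some arrays. The mean of the mitotic members was highest on knockout replicate 2 at CT0 (0.45 above its mean), knockout replicate 3 at CT18 (0.31), control replicate 3 at CT6 (0.27) and control replicate 2 at CT18 (0.20), and lowest on knockout replicate 1 at CT12 (-0.25). On the first of these the epithelial markers stood 0.92 above and the adipocyte markers 0.59 below their means (-0.59), with the T cell markers at -0.20. On control replicate 2 at CT18 all 6 of 6 T cell markers lay above their means, by 0.93 on average, and the B cell markers by 0.77. On knockout replicate 3 at CT18 the progenitor and macrophage markers were both low, at -0.50. The same array lay above the mean for T cell (0.22) and B cell markers (0.21), as did control replicate 3 at CT6 (0.34 and 0.52). The average of the plasma cell markers was above its mean on all 4 of these high arrays, by 0.13, 0.29, 0.09 and 0.22 in the order given above. In that order only 3, 4, 4 and 3 of the 5 markers lay above their own means. On knockout replicate 2 at CT0, Prdm1 had its highest value of all arrays (6.385) and Tnfrsf17 its lowest (5.805). Xbp1 had its lowest value (7.973) on knockout replicate 3 at CT18. The averages of the T and B cell markers were above on 3 of these 4 high arrays, and below on knockout replicate 2 at CT0.

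Over the 24 arrays the mitotic mean was correlated with the T cell markers (Pearson r = 0.58, Spearman rho = 0.62), with 6 of 6 markers positive, and r was 0.81 without knockout replicate 2 at CT0 and knockout replicate 3 at CT18, the 2 arrays farthest from the median of the mitotic mean. The T cell mean lay between 6.15 and 7.43 in controls and between 6.18 and 7.06 in knockouts. The plasma cell markers had r = 0.63 (rho = 0.70, 4 of 5 positive, 0.63 without the 2 arrays), the adipocyte markers r = -0.65 (rho = -0.53, 8 of 8 negative, -0.40 without the 2 arrays) and the progenitor markers r = -0.48 (rho = -0.44, -0.12 without the 2 arrays). For the epithelial markers r was 0.46 with rho at -0.07, and 0.02 without the 2 arrays. It was -0.03 without knockout replicate 2 at CT0 alone, so that relation rested on that array. B cell markers had r = 0.28 (0.58 without the 2 arrays), smooth muscle markers 0.31 (0.22) and endothelial markers -0.15 (0.29). Macrophage markers had -0.35 (0.33), erythroid markers -0.24 (0.10), mast cell markers -0.18 (-0.01) and neutrophil markers -0.16 (-0.16). These values keep the differences between groups. After group means were removed, r was 0.54 for T cell, 0.60 for plasma cell, -0.61 for adipocyte and -0.58 for progenitor markers. It was 0.36 for epithelial, 0.11 for B cell, 0.06 for smooth muscle and -0.36 for endothelial markers. Macrophage, erythroid, mast cell and neutrophil markers then had -0.16, -0.17, -0.16 and -0.27. The adipocyte mean lay between 10.8 and 11.2 in controls and between 10.4 and 11.1 in knockouts. These are 12 marker lists over arrays that share tissue and processing, described without a test, and the part of other cells in the variation of the members was not tested.

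**Figure D4:**
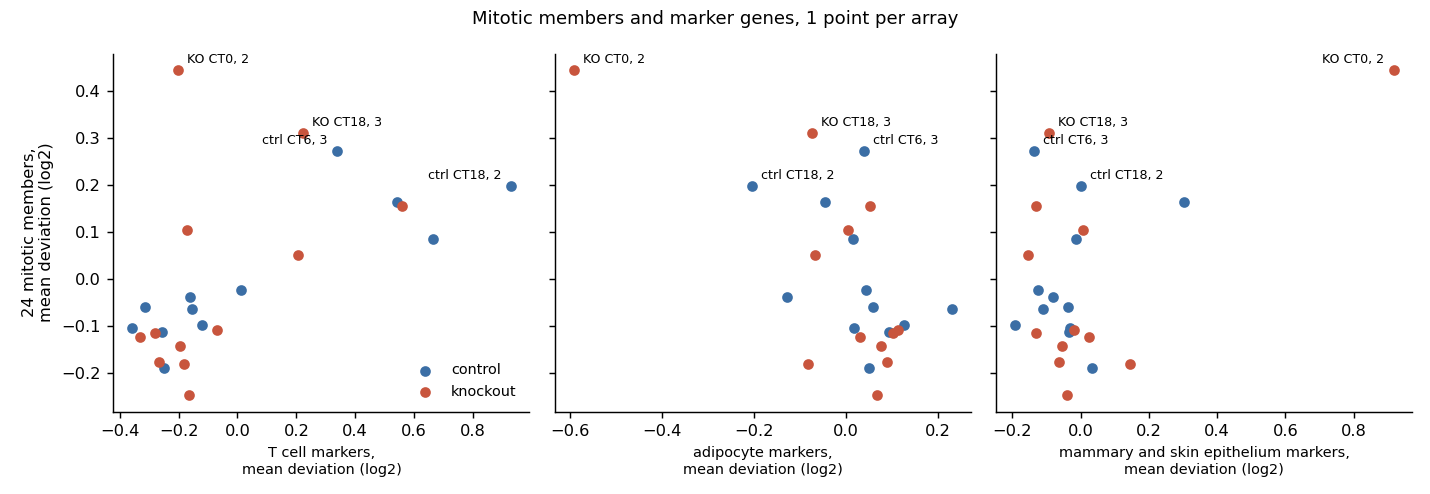
Mean deviation of the 24 mitotic members (vertical axis, log2) against the mean deviation of T cell, adipocyte and epithelial markers (horizontal axes, log2), with 1 point per array coloured by genotype. Knockout replicate 2 at CT0 (0.45) lies apart with low adipocyte and high epithelial markers, and of the other 8 arrays above 0 on the vertical axis 7 lie above 0 for T cell markers, knockout replicate 2 at CT6 being the exception.

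The rest of the pathway was read in 5 other lists of cell cycle genes. No gene of any list passed for the mean genotype difference, for genotype at single times or for the interaction. The list of other mitosis and cytokinesis genes (47 measured) had a mean that followed the mitotic members (r = 0.92 over the 24 arrays), as did those of other licensing and replication genes (34 measured, r = 0.85) and of other CDK, cyclin and CDK regulator genes (16 measured, r = 0.71). The E2F, pocket protein and DREAM genes (19 measured, r = -0.15) and the CDK inhibitors and arrest genes (11 measured, r = -0.12) did not. In the mitosis, replication and E2F lists no gene passed any test of time. The smallest p for genotype in any list belonged to Btg2, an antiproliferative gene, at -0.21 ± 0.05 (limma adjusted p = 0.182). The smallest in the mitosis list were those of Plk4 (-0.13 ± 0.04), Anln (-0.17 ± 0.06) and Kif18a (-0.11 ± 0.05), in the replication list Cdt1 (0.09 ± 0.05), Lig1 (0.10 ± 0.06) and Pole2 (-0.10 ± 0.06), and in the E2F list Tfdp2 (-0.15 ± 0.06), Lin9 (-0.13 ± 0.06) and Lin54 (-0.10 ± 0.05).

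With all arrays 4 regulators of the cycle passed a test of time while the members did not, and of the 4 only Wee1 passed in every alternative fit. Of 16 other CDK, cyclin and CDK regulator genes, 2 passed for time averaged over genotypes and for CT12 minus CT0, and of 11 CDK inhibitors and arrest genes 1 passed for time and 2 for CT18 minus CT6, where 0.883% of all genes passed for time, 0.532% for CT12 minus CT0 and 0.702% for CT18 minus CT6. Wee1, the kinase that restrains CDK1 and is known as a clock-controlled gene, rose by 0.86 ± 0.14 (1.82-fold) from CT0 to CT12 (limma adjusted p = 0.00662). Its controls read 6.36, 6.47 and 6.16 at CT0 and 6.96, 7.37 and 7.62 at CT12, and its knockouts 6.07, 6.68 and 6.53 at CT0 and 7.35, 7.25 and 6.89 at CT12. Every CT12 array lay above every CT0 array. The mean genotype difference of Wee1 was -0.16 ± 0.10 (limma adjusted p = 0.907), so a difference between genotypes was not detected. Its rise passed in all 31 alternative fits (limma adjusted p from 0.000165 to 0.0362).

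Cdc25a, the phosphatase that opposes Wee1 on CDKs, fell by 0.32 ± 0.07 (1.25-fold) from CT0 to CT12 (limma adjusted p = 0.0413). Its controls read 5.92, 6.13 and 5.93 at CT0 and 5.82, 5.68 and 5.87 at CT12, and its knockouts 6.14, 6.38 and 6.10 at CT0 and 5.68, 5.66 and 5.95 at CT12. This call was lost in 18 of 30 alternative fits, among them that without knockout replicate 2 at CT0 (limma adjusted p = 0.112). Gadd45b, a stress-induced growth arrest gene, fell by 0.45 ± 0.09 (1.36-fold, limma adjusted p = 0.0203) from CT6 to CT18. It read 7.01, 6.78 and 6.84 in control fat and 6.74, 6.63 and 6.71 in knockout fat at CT6, and 6.50, 6.55 and 6.16 against 6.25, 6.10 and 6.45 at CT18, so that every CT18 array lay below every CT6 array. Cdkn2c, which encodes the CDK4 and CDK6 inhibitor p18, rose by 0.64 ± 0.14 (1.55-fold, limma adjusted p = 0.036) from CT6 to CT18. Its controls read 7.69, 7.81 and 7.85 at CT6 and 8.32, 8.44 and 8.61 at CT18, and its knockouts 7.80, 8.50 and 7.82 at CT6 and 8.59, 8.45 and 8.87 at CT18, where 1 knockout array at CT6 reached the CT18 values. Without the 4 arrays of CT12 and CT18, the calls of Gadd45b (limma adjusted p = 0.0851) and Cdkn2c (limma adjusted p = 0.234) were lost, as was that of Cdc25a (limma adjusted p = 0.134). The differences themselves were then -0.43, 0.54 and -0.31, beside -0.45, 0.64 and -0.32 with all arrays.

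**Figure D5:**
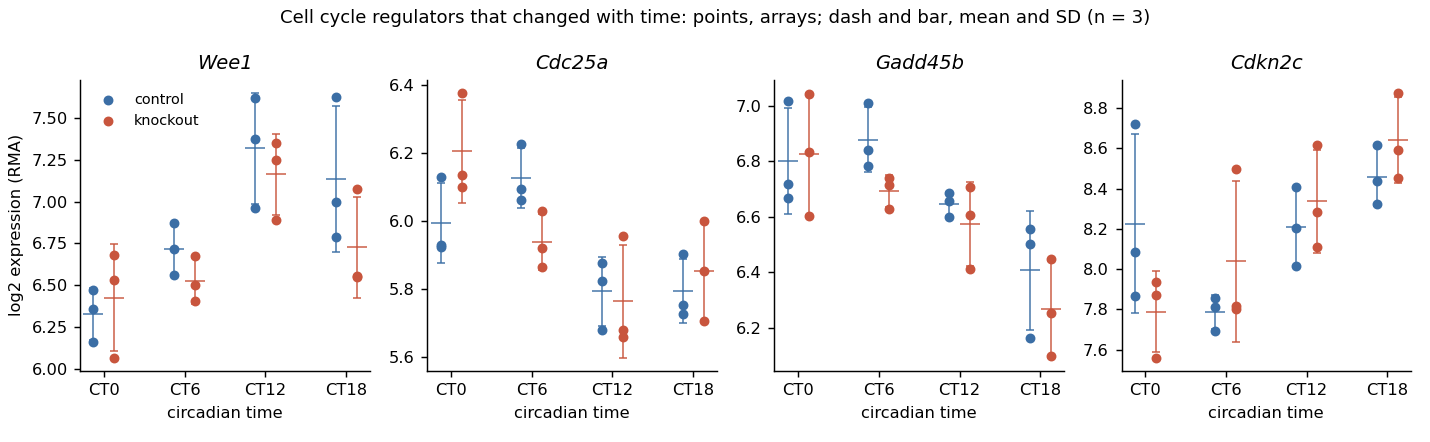
Log2 expression (vertical axis) of Wee1, Cdc25a, Gadd45b and Cdkn2c by circadian time (horizontal axis) in control and knockout fat, with 1 point per array and a dash and bar for the mean and SD of 3 arrays. Wee1 means rise from 6.33 and 6.43 at CT0 to 7.32 and 7.16 at CT12 in controls and knockouts, and Gadd45b means are lowest at CT18.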

How the data were processed

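RNA was extracted with Trizol, and 50 ng were amplified with the Ovation Pico WTA system and labelled with biotin, per the labels' protocols. The deposited values are log2 expression made by the authors, with RMA named in the submitters' processing notes; its version is not given in the sources used here. RMA (robust multi-array average) scales arrays to a common distribution, so a shift of all genes cannot be seen. The values were used as deposited. Of 35556 probe sets, 21789 had 1 gene symbol in the platform annotation, 1621 several and 12146 none here. Of several probe sets for a gene the one with the highest mean was used, which left 19938 genes. Precision is set by the number of arrays, 3 per group.

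A model with a mean for each of the 8 groups was fitted with limma 3.58.1 (lmFit and eBayes, 16 residual and 5.03 prior degrees of freedom) in R 4.3.3. P-values were adjusted by Benjamini-Hochberg over all genes, with a threshold of 0.05. It was tested on simulated data. SE is that of the fit. Correlations, motif counts and spreads were computed in Python 3.11.15. Genes named are the members with the smallest p in each comparison, the widest and narrowest ranges, the highest and lowest means, 4 fixed members, and genes of the other lists that passed or had the smallest p. The members, lists and tests were chosen with earlier results of these data known. The labels call the replicates biological, and each is taken as a separate mouse. Alternatives were normalization, a filter on dim genes, probe set choice, array weights, the variance prior, a replicate block and arrays left out.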

Additional observations from a re-analysis of the deposited data

How the results depend on the processing

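No member passed in any of the 11 comparisons as fitted, and this held in all alternatives but 1: with array weights, 1 member (Ube2c) passed for CT12 minus CT0 averaged over genotypes. In that alternative 441 of all genes passed, beside 106 as fitted. The median difference of the members moved by more than the SD of their mean between arrays (0.156) in 1 case, CT12 minus CT0, where it was 0.0402 over the 5 members at or above the median level of all genes. Leaving out each of the 24 arrays in turn gave 0 members passing in each comparison. With a replicate block 0 members passed in every comparison. The block cannot move the medians, since each replicate number occurs once in every group. The deviations of same-numbered knockout and control arrays were correlated at 0.189, 0.374 and 0.327 at CT0 and from -0.0336 to 0.119 at CT6. They were correlated from -0.37 to -0.029 at CT12 and from -0.119 to 0.157 at CT18. Only at CT0 were all 3 over 0.1, and the labels give no shared litter or day, so the numbers were not taken as pairs. For CT0 and CT6 alone, fits to the 6 arrays of that time had no member passing (smallest limma adjusted p 0.969 and 0.561), where 0 and 9 of all genes passed. Of the time calls of other lists, Wee1 passed in 31 of 31 alternatives for each test, Gadd45b in 29 of 31 for time averaged over genotypes and in 28 of 31 for CT18 minus CT6, Cdkn2c in 21 of 31, and Cdc25a in 9 of 30 and 12 of 30. The causes were not tested. Most members are dim, and probe background limits how small a change can be seen.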
